A study of Vitis vinifera with 15 samples.

Results

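The genes described here are the copies of stilbene synthase that stand side by side on grapevine chromosome 16. They were taken as all gene identifiers from Vv16s0100g00750 to Vv16s0100g01200, which gave 39 of the 29970 genes with a deposited value. The gene tables of the study annotate 33 of the 39, of which 32 carry the name stilbene or resveratrol synthase and 1, Vv16s0100g00860, the name chalcone synthase. The remaining 6 (Vv16s0100g00870, Vv16s0100g00960, Vv16s0100g00970, Vv16s0100g01060, Vv16s0100g01080 and Vv16s0100g01150) are called members by their place among the identifiers only. The identifiers follow the order along the scaffold and give no distance.

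Stilbene synthase condenses p-coumaroyl-CoA with malonyl-CoA into resveratrol, the parent compound of the grapevine stilbenes, which include defense compounds (phytoalexins) formed in leaves after infection, wounding or UV light. Chalcone synthase uses the same substrates and leads to the flavonoids instead. The p-coumaroyl-CoA comes from phenylalanine by way of phenylalanine ammonia-lyase, cinnamate 4-hydroxylase and 4-coumarate-CoA ligase. In grapevine, stilbene synthase is a large family of tandem copies that are near-identical in sequence, and R2R3-type MYB factors such as VvMYB14 and VvMYB15 are known to activate its promoters.

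RNA-Seq was carried out on leaves of Vitis vinifera “Gaglioppo” (field-grown grafted vines of a single scion clone, sampled at the end of August) on 5 rootstocks, with 3 replicates (A, B and C) for each combination. The combinations were GAG-41B (rootstock 41B, V. vinifera × V. berlandieri), GAG-KOB (Kober 5BB, V. riparia × V. berlandieri), GAG-3309C (3309 Couderc, V. riparia × V. rupestris) and GAG-17-37 (17-37Mgt, V. rupestris × V. berlandieri), and they were compared with GAG-1103P (1103 Paulsen, V. rupestris × V. berlandieri), the reference of the study. Every replicate pooled 2 leaves from each of 3 vines, and each rootstock was planted as its own block of 1 vineyard, so that rootstock and place in the field cannot be told apart. Levels are FPKM, fragments per kilobase of exon scaled to the fragments mapped, as calculated by the authors, and errors are SD over 3 libraries unless stated otherwise.

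Differences were tested with limma on log2(FPKM + 0.1) over 21364 genes, those that averaged 0.1 FPKM or more. A gene was called at a Benjamini-Hochberg adjusted p of 0.05 or less over all of these genes, and a log2 fold change of at least 2 was counted as 4-fold. Of the 39 members, 35 were tested, and Vv16s0100g00870, Vv16s0100g00970, Vv16s0100g01060 and Vv16s0100g01080 were listed at 0 in all 15 libraries. Since the copies are near-identical, a read can match several of them, and how the counting of the authors treated such reads is not given. The level of any single copy is therefore uncertain, and likeness between copies may come in part from shared reads. In whole leaves, moreover, a change in the share of the cells that express a gene and a change in RNA per cell cannot be told apart.

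Summed over all genes, the GAG-41B libraries held 2208240 to 2221125 FPKM and those of the remaining 4 combinations 1558965 to 1797627 FPKM. The leaf genes looked up as a check of the tissue, 2 of them subunits of photosystem I and II (Vv00s0125g00280 and Vv00s0207g00210) and 2 light-harvesting proteins, summed to 2405 to 2636 FPKM in GAG-41B, 1641 to 1852 FPKM in GAG-KOB, 1299 to 1364 FPKM in GAG-3309C and 1784 to 2021 FPKM in GAG-17-37, against 2156 to 2317 FPKM in GAG-1103P, and both light-harvesting genes were low throughout. Against GAG-1103P, 3 of the 4 leaf genes were called higher in GAG-41B, where 34.4% of all genes tested were called higher. Both light-harvesting genes were among them, with log2 fold changes of 3.36 (SE 0.65) and 3.18 (SE 0.52). In the other combinations 0 were called higher, against 26.9% of all genes in GAG-KOB, 22.0% in GAG-3309C and 18.6% in GAG-17-37. Of the leaf genes, 1 was called lower in GAG-KOB, 2 in GAG-3309C and 2 in GAG-17-37. The share of all genes called lower than in GAG-1103P was not counted, so that counts of lower genes are not read further. Replicate A stood slightly apart from B and C. Its libraries lay above their combination mean for 24 to 33 of the 35 tested members, on average by 0.03 to 0.15 on the log2 scale. The counts below are therefore also given without the 5 libraries of replicate A, a choice made after the data were seen.

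The array was expressed in all 5 combinations and its summed level differed between them by far more than the spread between replicates. The 39 members summed to 53139, 52538 and 54274 FPKM in GAG-41B, or 2.41% ± 0.0466 of the FPKM total of the library. In GAG-KOB the sums were 5516, 5403 and 5413 FPKM (0.309% ± 0.0115). GAG-3309C had 2647, 2416 and 2483 FPKM (0.159% ± 0.0101), and GAG-17-37 had 2312, 2368 and 2473 FPKM (0.149% ± 0.00419). The GAG-1103P leaves had 394, 363 and 362 FPKM (0.0223% ± 0.00118). The libraries of GAG-41B were thus above all others, those of GAG-KOB came next, those of GAG-3309C and GAG-17-37 overlapped, and those of GAG-1103P were below all others. Relative to the mean of GAG-1103P, the sum was 143-fold higher in GAG-41B, 14.6-fold in GAG-KOB, 6.74-fold in GAG-3309C and 6.39-fold in GAG-17-37.

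A single copy, Vv16s0100g00950, made up about as much of this sum as all other members together. Vv16s0100g00950 had 30289, 30649 and 32389 FPKM in GAG-41B, 2882, 2906 and 2910.4 FPKM in GAG-KOB, 1242, 1132 and 1241 FPKM in GAG-3309C and 1131, 1237 and 1365 FPKM in GAG-17-37, against 181, 169 and 167 FPKM in GAG-1103P. These levels put it at rank 3 of all genes by mean level in GAG-41B, 44 in GAG-KOB, 115 in GAG-3309C and 106 in GAG-17-37, compared with 1582 in GAG-1103P. Its share of the array was 58.3% ± 1.34 in GAG-41B, 53.3% ± 0.884 in GAG-KOB, 47.9% ± 1.79 in GAG-3309C and 52.1% ± 3.14 in GAG-17-37, compared with 46.2% ± 0.337 in GAG-1103P. The array without it was still 111-fold higher in GAG-41B, 12.7-fold in GAG-KOB, 6.53-fold in GAG-3309C and 5.68-fold in GAG-17-37 than in GAG-1103P. By limma, the log2 fold change of Vv16s0100g00950 was 7.50 (SE 0.07, adjusted p = 4.54e-16) in GAG-41B and 4.07 (SE 0.07, adjusted p = 4.73e-13) in GAG-KOB. It was 2.80 (SE 0.07, adjusted p = 1.25e-11) in GAG-3309C and 2.85 (SE 0.07, adjusted p = 2.55e-11) in GAG-17-37.

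**Figure D1:**
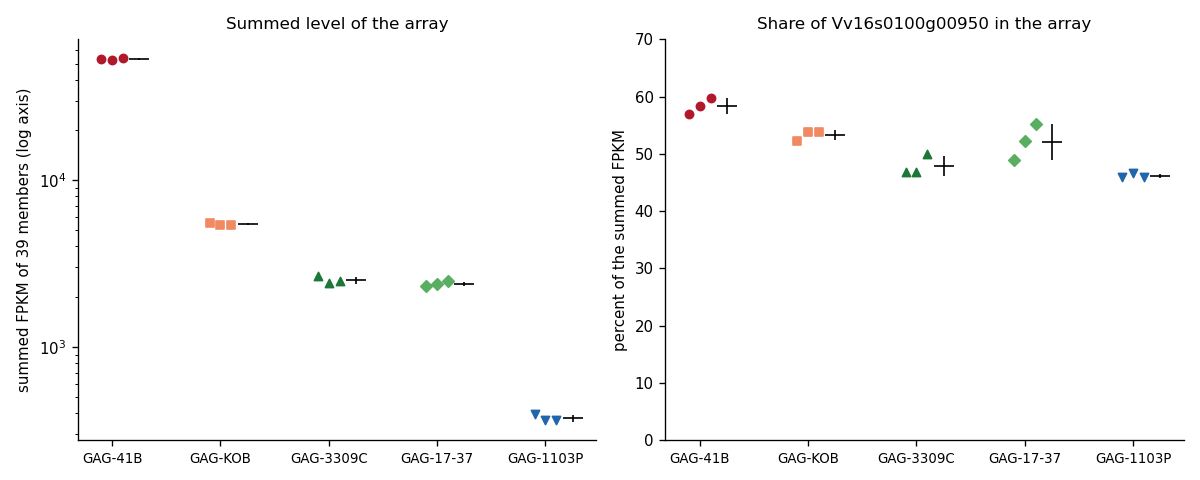
The left plot gives the summed FPKM of the 39 array members on a log axis and the right plot the percent of that sum taken by Vv16s0100g00950, for the 5 combinations (points are libraries A, B and C, and the black marks are mean and SD). The GAG-41B sums lie between 52538 and 54274 FPKM and those of GAG-1103P between 362 and 394 FPKM, while the share of Vv16s0100g00950 stays between 46.0% and 59.7% in the 15 libraries.

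Nearly all tested copies rose in all 4 combinations. In GAG-41B, 35 of 35 tested members were called higher than in GAG-1103P, where 34.4% of all genes tested were called higher, and 35 were at least 4-fold higher, against 8.75% of all genes. In GAG-KOB 35 were called higher (26.9% of all genes) and 34 at least 4-fold (2.996% of all genes). In GAG-3309C both counts were 34, where 22.0% of all genes were called higher and 1.85% at least 4-fold higher. In GAG-17-37 both counts were again 34, where 18.6% of all genes were called higher and 1.29% at least 4-fold higher. One of the 35, Vv16s0100g00960, passed the filter on low values only through its level in GAG-41B, and in GAG-KOB it averaged 0.303 FPKM. Its calls in both therefore carry no weight, and 34 of the other 34 were called higher in each comparison. No member was called lower in any of the 4 comparisons, which all use the same 3 GAG-1103P libraries. Without the libraries of replicate A the counts called higher were 35, 35, 34 and 34 in GAG-41B, GAG-KOB, GAG-3309C and GAG-17-37.

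The size of the change followed the combination more than the copy. The median log2 fold change over the 35 members was 6.81 in GAG-41B (range 3.96 to 7.63), 3.66 in GAG-KOB (1.98 to 4.24), 2.71 in GAG-3309C (0.39 to 3.74) and 2.66 in GAG-17-37 (0.58 to 3.65), and the median over all genes tested was 0.00 in each comparison. As ratios of mean FPKM, the 34 members other than Vv16s0100g00960, which was listed at 0 in GAG-1103P, were 39.9-fold to 208-fold higher in GAG-41B, 9.604-fold to 20.5-fold in GAG-KOB, 4.72-fold to 14.2-fold in GAG-3309C and 4.20-fold to 13.3-fold in GAG-17-37. In GAG-41B 29 of the 35 members averaged 100 FPKM or more, in GAG-KOB 12, in GAG-3309C 5 and in GAG-17-37 3, compared with 1 in GAG-1103P. The standard error of a member's log2 fold change was between 0.0367 and 0.472, with a median of 0.0824.

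**Figure D2:**
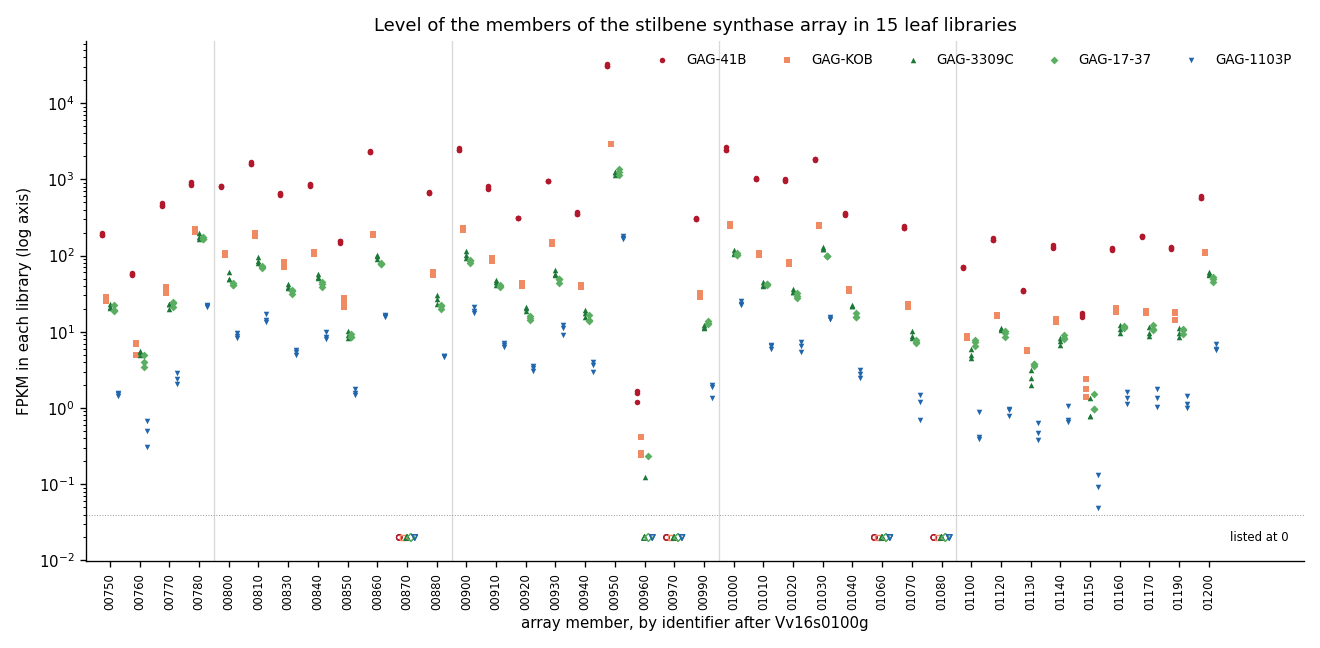
Each array member but 1 is shown along the x axis in the order of its identifier, with its FPKM in each of the 15 libraries on a log y axis. Colors and symbols mark the combinations, grey lines part the 5 stretches described in the text, and open symbols at the bottom are libraries where the member is listed at 0. GAG-41B lies on top and GAG-1103P at the bottom for each tested member, and Vv16s0100g00950 stands above all other copies in every combination.

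The array was read in 5 stretches of identifiers. The first, from Vv16s0100g00750 to Vv16s0100g00780, holds 4 copies annotated as stilbene synthase. The first copy by order, Vv16s0100g00750, had 198, 186 and 186 FPKM in GAG-41B, 28.8, 28.9 and 25.7 FPKM in GAG-KOB, 23.002, 20.4 and 20.9 FPKM in GAG-3309C and 22.2, 18.8 and 19.3 FPKM in GAG-17-37, against 1.56, 1.43 and 1.53 FPKM in GAG-1103P. GAG-41B was high in all 3 libraries, GAG-KOB lay only slightly above GAG-3309C and GAG-17-37, and GAG-1103P was below all of these. Its log2 fold change was 6.89 (SE 0.08, adjusted p = 1.04e-15) in GAG-41B, 4.12 (SE 0.08, adjusted p = 8.20e-13) in GAG-KOB, 3.74 (SE 0.08, adjusted p = 2.44e-12) in GAG-3309C and 3.65 (SE 0.08, adjusted p = 5.45e-12) in GAG-17-37. The values in GAG-3309C and GAG-17-37 were the highest of any member in those comparisons. Vv16s0100g00760 averaged 57.3 ± 1.06 FPKM in GAG-41B, 6.37 ± 1.17 FPKM in GAG-KOB, 5.303 ± 0.359 FPKM in GAG-3309C and 4.13 ± 0.797 FPKM in GAG-17-37, against 0.496 ± 0.187 FPKM in GAG-1103P (n = 3 here and in the means below). Vv16s0100g00770 averaged 463 ± 23.5 FPKM in GAG-41B, 35.3 ± 3.66 FPKM in GAG-KOB, 22.02 ± 1.79 FPKM in GAG-3309C and 23.2 ± 1.95 FPKM in GAG-17-37, against 2.46 ± 0.426 FPKM in GAG-1103P. In both, GAG-41B was highest, GAG-KOB next and GAG-1103P lowest.

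Vv16s0100g00780 had 911, 844 and 857 FPKM in GAG-41B, 221, 203 and 205 FPKM in GAG-KOB, 197, 177 and 164 FPKM in GAG-3309C and 175, 167 and 165 FPKM in GAG-17-37, against 22.5, 21.6 and 21.4 FPKM in GAG-1103P. It was the copy with the smallest increase in GAG-41B among those with a mean of at least 1 FPKM, at a log2 fold change of 5.31 (SE 0.06, adjusted p = 1.78e-15). The other 3 comparisons gave 3.26 (SE 0.06) in GAG-KOB, 3.03 (SE 0.06) in GAG-3309C and 2.95 (SE 0.06) in GAG-17-37, all called. Its rank among the copies changed accordingly. By mean level it was at rank 10 of the array in GAG-41B (1.63% of the sum), at rank 5 in GAG-KOB (3.85%) and at rank 2 in GAG-3309C (7.12%) and GAG-17-37 (7.10%), compared with rank 3 in GAG-1103P (5.85%).

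The second stretch, from Vv16s0100g00800 to Vv16s0100g00880, holds 8 members, of which Vv16s0100g00870 was listed at 0. Vv16s0100g00800 averaged 815 ± 13.01 FPKM in GAG-41B, 107 ± 3.48 FPKM in GAG-KOB, 52.8 ± 6.25 FPKM in GAG-3309C and 42.1 ± 1.79 FPKM in GAG-17-37, against 8.86 ± 0.753 FPKM in GAG-1103P. Vv16s0100g00810 averaged 1612 ± 54.8 FPKM in GAG-41B, 188 ± 10.8 FPKM in GAG-KOB, 87.1 ± 7.29 FPKM in GAG-3309C and 70.99 ± 2.396 FPKM in GAG-17-37, against 14.9 ± 1.83 FPKM in GAG-1103P. Vv16s0100g00830 averaged 641 ± 20.6 FPKM in GAG-41B, 75.3 ± 6.39 FPKM in GAG-KOB, 39.4 ± 2.67 FPKM in GAG-3309C and 33.6 ± 1.94 FPKM in GAG-17-37, against 5.39 ± 0.462 FPKM in GAG-1103P. These 3 stilbene synthase copies changed by 6.51 to 6.87 on the log2 scale in GAG-41B. Vv16s0100g00840 averaged 853 ± 23.1 FPKM in GAG-41B, 109.5 ± 4.25 FPKM in GAG-KOB, 53.2 ± 3.33 FPKM in GAG-3309C and 42.1 ± 2.84 FPKM in GAG-17-37, against 8.84 ± 1.02 FPKM in GAG-1103P. Vv16s0100g00850 averaged 153 ± 4.23 FPKM in GAG-41B, 23.8 ± 3.34 FPKM in GAG-KOB, 9.16 ± 0.894 FPKM in GAG-3309C and 8.78 ± 0.466 FPKM in GAG-17-37, against 1.61 ± 0.153 FPKM in GAG-1103P. Vv16s0100g00880 averaged 671 ± 14.2 FPKM in GAG-41B, 57.2 ± 2.74 FPKM in GAG-KOB, 26.8 ± 3.62 FPKM in GAG-3309C and 21.3 ± 1.09 FPKM in GAG-17-37, against 4.76 ± 0.103 FPKM in GAG-1103P. The last of these reached a log2 fold change of 7.11 (SE 0.08, adjusted p = 1.37e-15) in GAG-41B.

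Vv16s0100g00860 had 2333, 2267 and 2286 FPKM in GAG-41B, 189.8, 187 and 191 FPKM in GAG-KOB, 101, 90.9 and 100.1 FPKM in GAG-3309C and 80.2, 78.5 and 78.5 FPKM in GAG-17-37, against 15.5, 16.3 and 16.7 FPKM in GAG-1103P. This is the member annotated as chalcone synthase, the enzyme of the flavonoid branch, and its libraries did not overlap between any pair of neighbouring combinations. Its log2 fold change was 7.14 (SE 0.04, adjusted p = 8.94e-18) in GAG-41B, 3.55 (SE 0.04, adjusted p = 4.99e-14) in GAG-KOB, 2.59 (SE 0.04, adjusted p = 9.70e-13) in GAG-3309C and 2.29 (SE 0.04, adjusted p = 3.65e-12) in GAG-17-37. These values lie within the range of the copies annotated as stilbene synthase, and its name was not checked against a sequence.

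The third stretch, from Vv16s0100g00900 to Vv16s0100g00990, holds 9 members, among them Vv16s0100g00950 and the copy VvSTS16 of the study, Vv16s0100g00920. Vv16s0100g00920 had 311, 308 and 311 FPKM in GAG-41B, 43.3, 44.3 and 39.3 FPKM in GAG-KOB, 21.4, 20.5 and 18.99 FPKM in GAG-3309C and 15.1, 16.01 and 14.4 FPKM in GAG-17-37, against 3.06, 3.302 and 3.53 FPKM in GAG-1103P. All 5 combinations were apart from each other for VvSTS16, with GAG-17-37 below GAG-3309C. Its log2 fold change was 6.51 (SE 0.07, adjusted p = 8.68e-16) in GAG-41B, 3.64 (SE 0.07, adjusted p = 8.47e-13) in GAG-KOB, 2.59 (SE 0.07, adjusted p = 1.92e-11) in GAG-3309C and 2.17 (SE 0.07, adjusted p = 1.80e-10) in GAG-17-37.

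Among the other copies of this stretch, Vv16s0100g00900 averaged 2481 ± 79.8 FPKM in GAG-41B, 221 ± 5.94 FPKM in GAG-KOB, 103 ± 10.99 FPKM in GAG-3309C and 83.97 ± 4.46 FPKM in GAG-17-37, against 19.3 ± 1.5998 FPKM in GAG-1103P. Vv16s0100g00910 averaged 779 ± 39.5 FPKM in GAG-41B, 87.2 ± 5.38 FPKM in GAG-KOB, 44.5 ± 3.57 FPKM in GAG-3309C and 40.005 ± 1.45 FPKM in GAG-17-37, against 6.71 ± 0.359 FPKM in GAG-1103P. Vv16s0100g00930 averaged 953 ± 12.4 FPKM in GAG-41B, 144 ± 4.45 FPKM in GAG-KOB, 59.2 ± 4.27 FPKM in GAG-3309C and 47.5 ± 3.097 FPKM in GAG-17-37, against 10.9 ± 1.62 FPKM in GAG-1103P. These 3 are stilbene synthases of middle to high level for the array. Vv16s0100g00940 averaged 360.2 ± 15.8 FPKM in GAG-41B, 39.5 ± 1.48 FPKM in GAG-KOB, 17.4 ± 1.899 FPKM in GAG-3309C and 14.9 ± 1.41 FPKM in GAG-17-37, against 3.55 ± 0.555 FPKM in GAG-1103P. Vv16s0100g00990 averaged 303 ± 4.35 FPKM in GAG-41B, 30.7 ± 1.905 FPKM in GAG-KOB, 11.7 ± 0.616 FPKM in GAG-3309C and 13.2 ± 0.6195 FPKM in GAG-17-37, against 1.73 ± 0.335 FPKM in GAG-1103P. The copy Vv16s0100g00990 changed in GAG-41B by a log2 fold change of 7.39 (SE 0.11, adjusted p = 1.09e-14).

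The lowest tested member, without annotation, was Vv16s0100g00960, next to the highest. Vv16s0100g00960 had 1.201, 1.55 and 1.66 FPKM in GAG-41B, 0.253, 0.416 and 0.239 FPKM in GAG-KOB, 0.125, 0 and 0 FPKM in GAG-3309C and 0.235, 0 and 0 FPKM in GAG-17-37, against 0, 0 and 0 FPKM in GAG-1103P. Its GAG-41B libraries were above all others, and outside GAG-41B and GAG-KOB it had a value in 1 library each of GAG-3309C and GAG-17-37, both of replicate A. Against a combination listed at 0 no fold is given, and the fitted log2 values depend on the added 0.1. They were 3.96 (SE 0.47) in GAG-41B and 1.98 (SE 0.47) in GAG-KOB. Both are given without a test, since GAG-41B brought it past the filter and its level in GAG-KOB was low. With 0.39 (SE 0.47, adjusted p = 0.547) in GAG-3309C (95% interval -0.64 to 1.41) and 0.58 (SE 0.47, adjusted p = 0.3796) in GAG-17-37 (-0.44 to 1.61) it was the 1 tested member not called in these comparisons. The other member of the stretch, Vv16s0100g00970, was listed at 0 throughout.

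The fourth stretch, from Vv16s0100g01000 to Vv16s0100g01080, holds 8 members, with Vv16s0100g01060 and Vv16s0100g01080 listed at 0. Vv16s0100g01000 averaged 2519 ± 110.1 FPKM in GAG-41B, 248 ± 8.78 FPKM in GAG-KOB, 111 ± 6.11 FPKM in GAG-3309C and 104 ± 3.58 FPKM in GAG-17-37, against 23.6 ± 1.57 FPKM in GAG-1103P. Vv16s0100g01010 averaged 1024 ± 24.98 FPKM in GAG-41B, 105 ± 2.78 FPKM in GAG-KOB, 42.1 ± 2.09 FPKM in GAG-3309C and 42.2 ± 0.883 FPKM in GAG-17-37, against 6.34 ± 0.4297 FPKM in GAG-1103P. Vv16s0100g01020 averaged 979 ± 31.6 FPKM in GAG-41B, 79.5 ± 1.76 FPKM in GAG-KOB, 34.2 ± 1.76 FPKM in GAG-3309C and 29.8 ± 1.96 FPKM in GAG-17-37, against 6.44 ± 0.992 FPKM in GAG-1103P. Vv16s0100g01000 ranked next after Vv16s0100g00950 by mean level in GAG-41B, GAG-KOB and GAG-1103P. Vv16s0100g01030 averaged 1852 ± 28.5 FPKM in GAG-41B, 247 ± 2.32 FPKM in GAG-KOB, 125 ± 3.83 FPKM in GAG-3309C and 98.4 ± 0.725 FPKM in GAG-17-37, against 14.98 ± 0.514 FPKM in GAG-1103P. Vv16s0100g01040 had 363, 342 and 347 FPKM in GAG-41B, 36.9, 35.2 and 34.8 FPKM in GAG-KOB, 22.5, 22.02 and 21.6 FPKM in GAG-3309C and 17.5, 15.7 and 15.4 FPKM in GAG-17-37, against 3.14, 2.78 and 2.51 FPKM in GAG-1103P. For Vv16s0100g01040 the libraries of neighbouring combinations did not overlap, and its log2 fold change was 6.92 (SE 0.07, adjusted p = 8.81e-16) in GAG-41B.

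The largest change of the array in GAG-41B belonged to the resveratrol synthase Vv16s0100g01070, at a log2 fold change of 7.63 (SE 0.18, adjusted p = 7.17e-13). Vv16s0100g01070 had 244, 231 and 229.8 FPKM in GAG-41B, 22.9, 21.4 and 22.2 FPKM in GAG-KOB, 10.2, 8.39 and 8.89 FPKM in GAG-3309C and 7.42, 7.77 and 7.02 FPKM in GAG-17-37, against 1.21, 1.48 and 0.697 FPKM in GAG-1103P. The GAG-1103P values were low and spread widely, so that the standard error was larger than that of the median copy. In GAG-41B Vv16s0100g00770 (7.51, SE 0.12) and Vv16s0100g00950 (7.50, SE 0.07) lay within that error, so that the first place of Vv16s0100g01070 is not certain. The change of Vv16s0100g01070 was 4.24 (SE 0.18, adjusted p = 9.36e-10) in GAG-KOB, 2.96 (SE 0.18, adjusted p = 4.57e-08) in GAG-3309C and 2.66 (SE 0.18, adjusted p = 2.17e-07) in GAG-17-37.

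The fifth stretch, from Vv16s0100g01100 to Vv16s0100g01200, holds 10 members, all tested, of which 1 enters the counts and sums only, and most of its copies were low for the array. Vv16s0100g01100 averaged 70.6 ± 0.908 FPKM in GAG-41B, 8.61 ± 0.238 FPKM in GAG-KOB, 5.12 ± 0.742 FPKM in GAG-3309C and 7.26 ± 0.6795 FPKM in GAG-17-37, against 0.564 ± 0.277 FPKM in GAG-1103P. Vv16s0100g01120 averaged 163 ± 7.38 FPKM in GAG-41B, 16.3 ± 0.337 FPKM in GAG-KOB, 10.9 ± 0.2395 FPKM in GAG-3309C and 9.47 ± 0.813 FPKM in GAG-17-37, against 0.889 ± 0.0937 FPKM in GAG-1103P. In both, GAG-41B was highest, GAG-KOB next and GAG-1103P lowest, with no overlap between these 3. Vv16s0100g01140 averaged 129.8 ± 5.79 FPKM in GAG-41B, 14.2 ± 0.794 FPKM in GAG-KOB, 7.56 ± 0.727 FPKM in GAG-3309C and 8.44 ± 0.538 FPKM in GAG-17-37, against 0.803 ± 0.225 FPKM in GAG-1103P. Vv16s0100g01150 averaged 16.5 ± 1.09 FPKM in GAG-41B, 1.85 ± 0.496 FPKM in GAG-KOB, 0.968 ± 0.322 FPKM in GAG-3309C and 1.16 ± 0.323 FPKM in GAG-17-37, against 0.0905 ± 0.0412 FPKM in GAG-1103P. Vv16s0100g01160 averaged 122 ± 2.86 FPKM in GAG-41B, 19.7 ± 1.14 FPKM in GAG-KOB, 10.8 ± 1.31 FPKM in GAG-3309C and 11.6 ± 0.237 FPKM in GAG-17-37, against 1.37 ± 0.2597 FPKM in GAG-1103P. Of these, Vv16s0100g01150 has no annotation and had its lowest values in GAG-1103P. Vv16s0100g01170 averaged 179.5 ± 1.88 FPKM in GAG-41B, 18.3 ± 0.366 FPKM in GAG-KOB, 10.03 ± 1.34 FPKM in GAG-3309C and 11.2 ± 0.992 FPKM in GAG-17-37, against 1.39 ± 0.363 FPKM in GAG-1103P. Vv16s0100g01190 averaged 127 ± 4.24 FPKM in GAG-41B, 16.6 ± 2.02 FPKM in GAG-KOB, 9.79 ± 1.298 FPKM in GAG-3309C and 10.2 ± 0.834 FPKM in GAG-17-37, against 1.19 ± 0.229 FPKM in GAG-1103P. Both are annotated as stilbene synthase, and in GAG-41B Vv16s0100g01170 was the higher of the pair in all 3 libraries.

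The last copy, Vv16s0100g01200, is VvSTS48 of the study. Vv16s0100g01200 had 603, 573 and 575 FPKM in GAG-41B, 109, 110.5 and 107 FPKM in GAG-KOB, 60.1, 56.97 and 55.99 FPKM in GAG-3309C and 51.6, 49.4 and 45.5 FPKM in GAG-17-37, against 5.89, 6.95 and 5.72 FPKM in GAG-1103P. It was the highest copy of its stretch in each combination. Its log2 fold change was 6.54 (SE 0.07, adjusted p = 8.68e-16) in GAG-41B, 4.12 (SE 0.07, adjusted p = 4.35e-13) in GAG-KOB, 3.20 (SE 0.07, adjusted p = 3.81e-12) in GAG-3309C and 2.96 (SE 0.07, adjusted p = 1.74e-11) in GAG-17-37. Both VvSTS16 and VvSTS48 thus changed in GAG-41B by less than the median member.

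Across the stretches the increase in GAG-41B varied little, with medians of 6.76, 6.75, 6.74, 7.09 and 6.59 on the log2 scale from the first stretch to the fifth. In GAG-KOB they were 3.64, 3.62, 3.66, 3.83 and 3.74. The medians in GAG-3309C were 3.17, 2.56, 2.51, 2.82 and 2.93, and those in GAG-17-37 were 3.07, 2.25, 2.15, 2.58 and 2.99, so that in these 2 combinations both ends of the array had higher values than the second and the third stretch. The added 0.1 lowers the fitted values of low copies most. In GAG-1103P the median level of the fifth stretch was 0.846 FPKM, against 1.98 to 8.84 FPKM in the others. Vv16s0100g01150, for example, was 182-fold higher in GAG-41B by mean FPKM, with a fitted log2 fold change of 6.47. Over the 35 members, the Spearman correlation of the log2 fold change with the order of the identifiers was -0.03 in GAG-41B, 0.14 in GAG-KOB, 0.03 in GAG-3309C and 0.26 in GAG-17-37. These are descriptions over copies that share libraries and may share reads, and no test was made between the stretches.

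**Figure D3:**
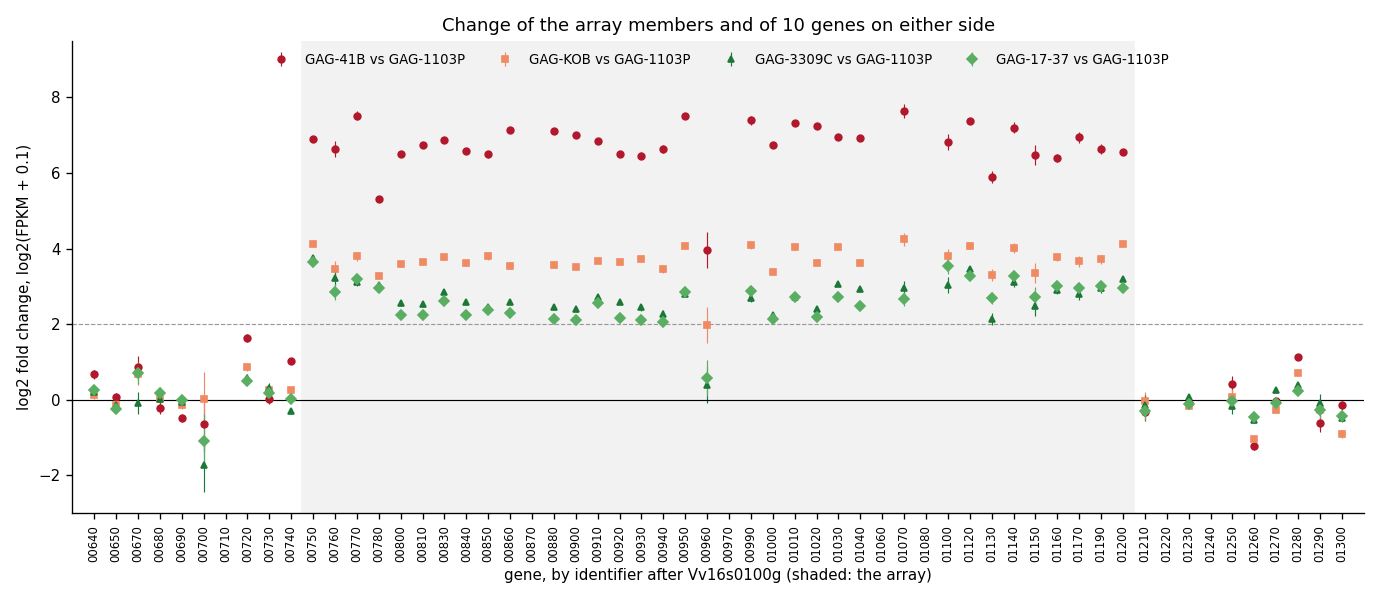
Log2 fold changes against GAG-1103P, from log2(FPKM + 0.1), are shown for the array members but 1 (shaded) and for 10 genes on either side in the order of their identifiers. Bars are standard errors, the dashed line marks a log2 fold change of 2, and genes without a symbol were not tested. The members lie between 3.96 and 7.63 in GAG-41B, whereas no gene beside the array reaches the dashed line in any combination.

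The genes next to the array changed by far less. Of the 10 identifiers before it 9 were tested, and in GAG-41B 4 were called higher and 1 lower, 0 of them 4-fold (median log2 fold change 0.08). Of the 10 after it 8 were tested, and in GAG-41B 1 was called higher and 2 lower, 0 of them 4-fold (median -0.12). Among all genes tested, 34.4% were called higher in GAG-41B and 8.75% at least 4-fold higher. Whether the neighbours differ from these shares was not tested. Over all 4 combinations the tested neighbours lay between -1.73 and 1.63, none of them called at 4-fold. Vv16s0100g00740, directly before the array, had 201, 188 and 179.8 FPKM in GAG-41B, against 105, 83.0 and 91.3 FPKM in GAG-1103P (log2 fold change 1.03, SE 0.08, adjusted p = 1.34e-07). Vv16s0100g01210, directly after it, had 49.3, 34.0 and 32.8 FPKM in GAG-41B, against 58.4, 47.2 and 38.5 FPKM in GAG-1103P, and was not called (-0.32, SE 0.25, adjusted p = 0.286). The changes of 4-fold and more thus ended between neighbouring identifiers on both sides.

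Apart from GAG-3309C and GAG-17-37, the order of the combinations was the same for each tested copy. All 35 tested members had their highest mean in GAG-41B, the next in GAG-KOB and the lowest in GAG-1103P, with GAG-3309C and GAG-17-37 between. GAG-41B was called higher than GAG-KOB for 35 members (27.6% of all genes tested), than GAG-3309C for 35 (31.7%) and than GAG-17-37 for 35 (31.1%). The median log2 differences were 3.11, 4.01 and 4.27, in this order. GAG-KOB was called higher than GAG-3309C for 33 members (18.7% of all genes), with a median log2 difference of 0.99 and a range of 0.23 to 1.59. It was called higher than GAG-17-37 for 33 members (17.4% of all genes), with a median of 1.21 and a range of 0.25 to 1.60. Vv16s0100g00960 is among the members called in each of these 5 comparisons. Its order and its calls carry no weight here either, since only GAG-41B brought it past the filter and its other levels were low. With a mean of at least 1 FPKM required, which leaves it out, the 5 counts were 34, 34, 34, 32 and 32 of 34. Without the libraries of replicate A, the 5 counts over all tested members were 35, 35, 35, 33 and 34.

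Comparisons of single copies between GAG-KOB and the next 2 combinations were not called in 4 cases, of which 3 are given. Vv16s0100g00760 differed from GAG-3309C by 0.25 (SE 0.21, adjusted p = 0.415) on the log2 scale, with a 95% interval of -0.21 to 0.71. From GAG-17-37, Vv16s0100g01100 differed by 0.25 (SE 0.21, adjusted p = 0.408), with -0.20 to 0.70, and Vv16s0100g01150 by 0.64 (SE 0.26, adjusted p = 0.0807), with 0.07 to 1.20. These intervals do not show equal levels. The difference between GAG-KOB and GAG-3309C was small in the first stretch, with a median of 0.31 on the log2 scale, against 1.04, 1.23, 1.19 and 0.86 in the second to the fifth. In the first stretch Vv16s0100g00780 differed by 0.23 (SE 0.06, adjusted p = 0.0119) and Vv16s0100g00750 by 0.37 (SE 0.08, adjusted p = 0.00198), compared with 1.27 (SE 0.07, adjusted p = 4.27e-08) for Vv16s0100g00950. The remaining copy of that stretch, Vv16s0100g00770, differed by 0.68 (SE 0.12, limma, adjusted p = 5.58e-04), within the range of the fifth stretch (0.58 to 1.15).

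GAG-17-37 and GAG-3309C were the closest pair and the 1 pair in which the mean differences of the copies lay on both sides of 0, with 12 above and 23 below. In GAG-17-37, 1 member was called higher (9.53% of all genes tested) and 11 were called lower (7.37%) than in GAG-3309C, while 23 of the 35 were not called. The log2 differences ran from -0.44 to 0.55 with a median of -0.20. The copies called lower were Vv16s0100g00800, Vv16s0100g00810, Vv16s0100g00840, Vv16s0100g00860 and Vv16s0100g00880 of the second stretch, Vv16s0100g00900, Vv16s0100g00920 and Vv16s0100g00930 of the third, Vv16s0100g01030 and Vv16s0100g01040 of the fourth and Vv16s0100g01200 of the fifth. The largest decrease was that of Vv16s0100g01040, with 17.5, 15.7 and 15.4 FPKM in GAG-17-37, against 22.5, 22.0 and 21.6 FPKM in GAG-3309C (log2 difference -0.44, SE 0.07, adjusted p = 0.00115). VvSTS16 differed by -0.42 (SE 0.07, adjusted p = 0.00108) and VvSTS48 by -0.24 (SE 0.07, adjusted p = 0.0309).

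The copy called higher, Vv16s0100g01130 in the fifth stretch, had a log2 difference of 0.55 (SE 0.16, adjusted p = 0.03603) between GAG-17-37 and GAG-3309C. Vv16s0100g01130 had 34.4, 33.9 and 35.6 FPKM in GAG-41B, 5.66, 5.59 and 5.74 FPKM in GAG-KOB, 3.13, 2.49 and 2.0004 FPKM in GAG-3309C and 3.52, 3.77 and 3.81 FPKM in GAG-17-37, against 0.642, 0.471 and 0.378 FPKM in GAG-1103P. Its GAG-17-37 libraries were above those of GAG-3309C, whose values spread widely, and Vv16s0100g01140 to Vv16s0100g01190 after it had mean differences above 0, none of them called. On its other side, Vv16s0100g01120 had a difference of -0.20 (95% interval -0.37 to -0.03) and was not called either. The copy with the most transcript, Vv16s0100g00950, differed by 0.04 (SE 0.07, adjusted p = 0.756), with a 95% interval of -0.11 to 0.19. This pair depended on single libraries. Without GAG-17-37 replicate B 7 members were called, all lower, without GAG-17-37 replicate C 5, all lower, and without GAG-3309C replicate A 1 higher and 7 lower. A fit of these 2 combinations alone called 5, all lower, and without all libraries of replicate A the counts were 1 higher and 11 lower. The call of a higher copy was also lost when GAG-17-37 replicate A, GAG-3309C replicate B or C, GAG-41B replicate B or GAG-KOB replicate B was left out.

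**Figure D4:**
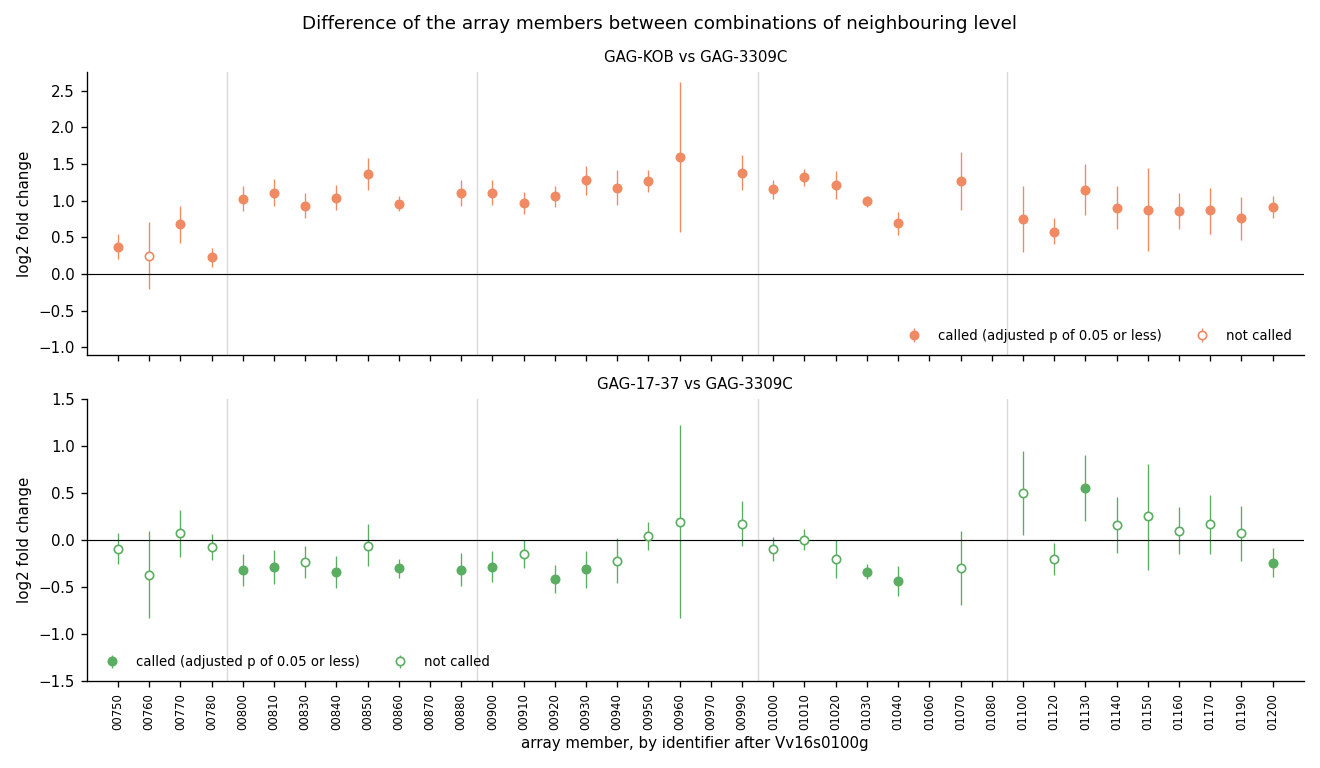
Log2 differences of each array member but 1 in GAG-KOB against GAG-3309C (top) and in GAG-17-37 against GAG-3309C (bottom) are given in the order of the identifiers, with 95% intervals. Filled symbols were called, and grey lines part the 5 stretches. In the top plot 33 filled symbols lie above 0, and Vv16s0100g00750, Vv16s0100g00760 and Vv16s0100g00780 of the first stretch are at the bottom of the range. In the bottom plot 11 filled symbols lie below 0 and 1 above.

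The copies also resembled each other over the single libraries. Over the 15 libraries the Pearson correlation of log2(FPKM + 0.1) between pairs of members was 0.799 to 0.9997 with a median of 0.990 (595 pairs of the 35 tested members). Most of this reflects the differences between combinations. After the combination means were subtracted, the correlations ran from -0.818 to 0.963 with a median of 0.341, and 444 of 595 pairs were above 0. The pairs share libraries and may share reads, and no test was made.

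Most other listed genes of the pathway were also called higher. The lists of genes were taken from the annotation of the study, which chose them on these same libraries, so that their direction is not independent evidence. The shares of all genes tested called higher were 34.4% in GAG-41B, 26.9% in GAG-KOB, 22.0% in GAG-3309C and 18.6% in GAG-17-37. Phenylalanine ammonia-lyase, the entry enzyme of the pathway, is annotated under 2 spellings. Of the 6 genes with the usual spelling, 6 were called higher in GAG-41B, 5 in GAG-KOB, 6 in GAG-3309C and 5 in GAG-17-37 than in GAG-1103P, with median log2 fold changes of 3.60, 2.38, 1.79 and 1.65. The 6 genes of the other spelling, all on chromosome 16 and added after the data were seen, were called higher in each comparison, with medians of 5.84, 3.10, 2.13 and 1.96. Over all 12 the medians were 5.50, 2.93, 2.08 and 1.84, below those of the array, while single genes lay within the range of its members. The difference between the array and the other lists was not tested. The highest gene, Vv08s0040g01710, averaged 717 ± 49.2 FPKM in GAG-41B, against 18.9 ± 1.27 FPKM in GAG-1103P (log2 fold change 5.24, SE 0.08, adjusted p = 1.21e-14). All 3 genes for cinnamate 4-hydroxylase, which hydroxylates cinnamate to p-coumarate, were called higher in each of the 4 comparisons, with medians of 3.90, 2.49, 2.62 and 1.86. Vv06s0004g08150 averaged 1583 ± 138 FPKM in GAG-41B, against 81.0 ± 4.91 FPKM in GAG-1103P (4.29, SE 0.09, adjusted p = 3.32e-13). All 3 genes for 4-coumarate-CoA ligase, which makes the CoA ester that stilbene synthase uses, were called higher in each comparison as well, with medians of 3.20, 1.96, 1.23 and 0.91.

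The 3 genes annotated as myb domain protein 14 carry the name of a transcription factor known to act on stilbene synthase promoters. Whether each of them does so was not checked. All 3 were called higher in GAG-41B (34.4% of all genes tested) and GAG-KOB (26.9%). Vv05s0049g01020 averaged 727 ± 55.4 FPKM in GAG-41B, 140.3 ± 12.97 FPKM in GAG-KOB, 87.2 ± 2.11 FPKM in GAG-3309C and 92.6 ± 6.45 FPKM in GAG-17-37, against 41.0 ± 3.14 FPKM in GAG-1103P. Vv07s0005g03340 averaged 529.7 ± 32.1 FPKM in GAG-41B, against 37.1 ± 3.15 FPKM in GAG-1103P. Their log2 fold changes in GAG-41B were 4.14 (SE 0.08, adjusted p = 1.41e-13) and 3.83 (SE 0.08, adjusted p = 3.46e-13). The third, Vv12s0134g00490, was called lower in GAG-3309C (-0.90, SE 0.29, adjusted p = 0.0253) and was not called in GAG-17-37 (0.17, SE 0.29, adjusted p = 0.693). Of the chalcone synthase genes outside the array, 4 of 4 were called higher in each comparison, with medians of 3.73, 2.59, 1.34 and 1.45. In GAG-3309C 22.0% of all genes tested were called higher, and in GAG-17-37 18.6%. The highest chalcone synthase gene, Vv14s0068g00920, averaged 45.4 ± 0.0904 FPKM in GAG-41B, against 2.22 ± 0.0121 FPKM in GAG-1103P (4.29, SE 0.10, adjusted p = 7.84e-13).

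A second group of stilbene synthase genes lies on chromosome 10, and 8 of its 10 identifiers from Vv10s0042g00840 to Vv10s0042g00930 were tested. All 8 were called higher in each of the 4 comparisons, with median log2 fold changes of 6.60 in GAG-41B, 3.38 in GAG-KOB, 2.09 in GAG-3309C and 2.13 in GAG-17-37, close to the medians of the array in GAG-41B and GAG-KOB and below them in the other 2 combinations. The shares of all genes tested called higher were 34.4%, 26.9%, 22.0% and 18.6%, in the same order. For example, Vv10s0042g00890 averaged 668 ± 32.4 FPKM in GAG-41B, against 8.14 ± 1.04 FPKM in GAG-1103P (6.35, SE 0.09, adjusted p = 8.31e-15). The difference between the 2 groups of genes was not tested.

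**Figure D5:**
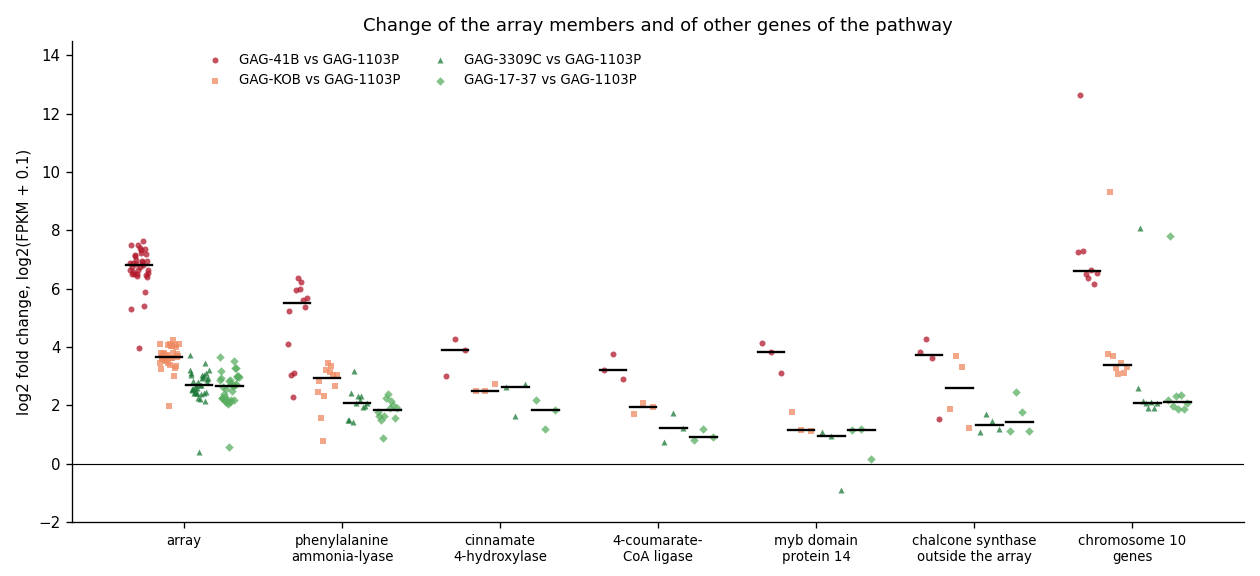
Log2 fold changes against GAG-1103P, from log2(FPKM + 0.1), are shown for the tested array members and for the genes of the other lists, with 1 point for each gene and a black line at the median of each list. The array median is 6.81 in GAG-41B, against 5.50 for the 12 phenylalanine ammonia-lyase genes of both spellings, 3.20 to 3.90 for the other enzymes and the myb factors and 6.60 for the chromosome 10 genes.

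Outside chromosome 10, the genes most like the mean profile of the array over the 15 libraries were Vv14s0060g02320 (Pearson r = 0.9990), Vv16s0039g01100 (0.9987), Vv01s0011g02480 (0.9986), Vv01s0026g00900 (0.9986) and Vv19s0014g00830 (0.9986). Vv14s0060g02320, annotated as a respiratory burst oxidase, an enzyme that forms superoxide at the plasma membrane, averaged 310.1 ± 8.09 FPKM in GAG-41B, 65.6 ± 3.01 FPKM in GAG-KOB, 44.7 ± 5.88 FPKM in GAG-3309C and 38.3 ± 2.45 FPKM in GAG-17-37, against 10.3 ± 0.695 FPKM in GAG-1103P. Vv16s0039g01100, a phenylalanine ammonia-lyase of the other spelling, averaged 289 ± 13.2 FPKM in GAG-41B, against 3.40 ± 0.170 FPKM in GAG-1103P. The other 3 are annotated as a phospholipid-transporting ATPase, a metalloendoproteinase and a receptor-like kinase. These correlations rest on the differences between the 5 combinations, which the genes share, and are given as a description. Of the tested chromosome 10 genes, Vv10s0042g00910 came closest, at rank 33 of the genes outside the array (r = 0.9931).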

How the data were processed

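Leaf RNA of 15 libraries (5 graft combinations, 3 replicates each) was extracted with a plant total RNA kit and prepared with the TruSeq v2 kit. According to the methods and the submitters' processing notes, the authors trimmed single-end reads, aligned them to the PN40024 grapevine genome with TopHat2 2.0.14 and Bowtie2 2.2.4, and calculated the deposited FPKM values with Cufflinks 2.2.0 and a geometric normalization. How strand and reads matching several copies were treated is not given in the sources used here. DESeq 1.6.3, named in the notes, needs read counts and was not repeated, and FPKM values carry no depth, so that precision rests on the spread between replicates.

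On the scale log2(FPKM + 0.1), limma 3.58.1 (R 4.3.3) was run in 1 fit over 15 libraries with a variance trend, for the 21364 genes averaging 0.1 FPKM or more. Tests were two-sided with Benjamini-Hochberg adjustment over all genes tested, and the procedure was tested on simulated data. Summaries used Python 3.11.15, pandas 2.3.3, numpy 2.4.6, scipy 1.17.1 and matplotlib 3.10.9. All 15 columns were matched to samples, and 0 were left out. Members and gene lists were chosen with earlier results of these data known. Values are given for each library for VvSTS16 and VvSTS48, the first, last, highest and lowest copy, the copies with the largest and smallest change in GAG-41B and between GAG-17-37 and GAG-3309C, the copy annotated as chalcone synthase, and copies not called against GAG-1103P or at 0. The values of 1 member are not reported here on their own. Annotations came from the gene tables of the study. Alternatives were other pseudocounts, filters, scalings and fits, and leaving out libraries. Replicate letters did not clearly pair the samples, although replicate A stood slightly apart.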

Additional observations from a re-analysis of the deposited data

How the results depend on the processing

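The 10 counts of members were recomputed under 26 alternatives each, and 256 of the 260 values stayed within 1.5 times the reported count. The 4 that did not all concern GAG-17-37 against GAG-3309C, where 12 members were called. Under a fit of these 2 combinations alone 5 were called, at an adjusted p of 0.005 or less 4, and over the 15 fits without 1 library between 5 and 14, with the low counts 7 without GAG-17-37 replicate B and 5 without GAG-17-37 replicate C. The 4-fold counts did depend on the pseudocount, although within that band. When 1 rather than 0.1 was added, 25 members were at least 4-fold above GAG-1103P for GAG-17-37 and 29 for GAG-3309C. GAG-KOB then had 32 such members and GAG-41B 34. The reported counts are 34, 34, 34 and 35, in this order. The members called higher under this setting numbered 34, 34, 35 and 35, as reported. Of 1034 values for the fold changes of named members against GAG-1103P, 1032 kept direction and call. The 2 others are those of Vv16s0100g00960 in GAG-3309C and GAG-17-37, both 0.00 without the libraries of replicate A, since the remaining libraries are listed at 0. Without its highest member the array summed to 22208 FPKM in GAG-41B, 2544 FPKM in GAG-KOB, 1309.9 FPKM in GAG-3309C and 1140.3 FPKM in GAG-17-37, against 201 FPKM in GAG-1103P. Counted over both spellings of the annotation, the phenylalanine ammonia-lyase genes called higher were 12 in GAG-41B, 11 in GAG-KOB, 12 in GAG-3309C and 11 in GAG-17-37, since the list then holds 12 genes. Over all genes tested the shares called higher were 34.4%, 26.9%, 22.0% and 18.6%. Scaled to the same FPKM total, the sums were 42548 FPKM in GAG-41B, 2805 FPKM in GAG-3309C and 2640.4 FPKM in GAG-17-37, against 393 FPKM in GAG-1103P. That scaling moved the all-gene median by -0.38 on the log2 scale in GAG-41B against GAG-1103P, and the median of the members relative to it was 6.80. The letters of the replicates did not clearly pair the libraries (correlations of same-letter libraries -0.0539 to 0.137, 5 of 15 libraries closest to their own letter). These correlations ran from -0.00169 to 0.137 for letter A, from -0.0539 to 0.0398 for B and from -0.0363 to 0.0327 for C. A fit with a replicate block called 16 members between GAG-17-37 and GAG-3309C. Against GAG-1103P that fit called 35, 34, 34 and 34 at 4-fold in GAG-41B, GAG-KOB, GAG-3309C and GAG-17-37.

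FPKM values hold no counts, so that no limit of detection can be given for the copies listed at 0. Reads that can match several near-identical copies limit any statement on a single copy more than on the summed array. How the authors' counting treated them cannot be seen in the values. The 3 libraries of a combination pool leaves of vines in 1 block and do not measure differences between vineyards or years.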

Other observations

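Of the tested chromosome 10 genes, 1 had libraries listed at 0. Vv10s0042g00850 had 4265, 6524 and 4397 FPKM in GAG-41B, 452, 453 and 623 FPKM in GAG-KOB, 200.5, 144 and 338 FPKM in GAG-3309C and 142, 294 and 134 FPKM in GAG-17-37, against 0, 0 and 48.7 FPKM in GAG-1103P. Its fitted log2 fold change in GAG-41B of 12.62 (SE 1.73, limma, adjusted p = 2.35e-05) depends on the added 0.1, since 2 of the 3 GAG-1103P libraries are listed at 0. Its correlation with the mean profile of the array over the 15 libraries was 0.8531, at rank 2891 of the genes outside the array.

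Beside the array, Vv16s0100g00720 and Vv16s0100g01280 were called higher in all 4 combinations. Vv16s0100g00720 averaged 34.2 FPKM in GAG-41B, against 11.1 FPKM in GAG-1103P (1.63, SE 0.10, limma, adjusted p = 5.77e-09), and Vv16s0100g01280 averaged 676 FPKM in GAG-41B, against 308 FPKM in GAG-1103P (1.13, SE 0.05, limma, adjusted p = 6.19e-10). Vv16s0100g01260 was called lower in all 4, with 13.4 FPKM in GAG-41B, against 31.7 FPKM in GAG-1103P (-1.23, SE 0.09, limma, adjusted p = 4.57e-08). They were chosen after their values were seen, and what they encode was not looked up.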
